A study of Vitis vinifera with 16 samples.

Results

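The 5 grape genes described here are annotated as lipid-transfer proteins and were picked by their gene identifiers from a table of 13411 genes. They are LOC100266074 (non-specific lipid-transfer protein A-like), LOC100243960 (non-specific lipid-transfer protein 1-like), LOC100232872 (lipid transfer protein precursor), LOC100244704 (non-specific lipid-transfer protein 2) and LOC100256803 (putative lipid-transfer protein DIR1). All 5 reached 1 FPKM in at least 2 libraries. They were picked because their levels differed between 2 varieties, so that difference is given as a description without a test. The RNA came from ovules of Vitis vinifera, of the varieties Zhongpu No. 18 (ZP) and Muscat Hamburg (MH), on day 35, day 45, day 55 and day 61 counted from flowering. Each of the 8 combinations had 2 libraries, 16 in all, and no treatment or transgene was given. The study concerns lignin and compares seeded with stenospermocarpic grapes, in which seeds stop growing after fertilisation. Neither the seedless variety nor the plants behind each library are named in the labels, so p-values speak only of the scatter among these libraries, part or all of which may be technical. The RNA is from whole ovules, so fewer cells of a type and less RNA per cell cannot be told apart.

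Non-specific lipid-transfer proteins are small secreted plant proteins, held in shape by disulfide bonds, that enclose a lipid in a hydrophobic cavity. They are known for a part in laying down cutin and waxes at the epidermis, in seeds, where some are abundant and act as allergens, and in defence. DIR1 was first described in Arabidopsis, where it is needed for the signal that travels from an infected leaf in systemic acquired resistance.

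The genes lie at separate places, given here as in the deposited table, which match the RefSeq positions of assembly ASM3070453v1. LOC100266074 is on chromosome 12 from 1787901 to 1788659 on the minus strand, and LOC100243960 on chromosome 14 from 29499346 to 29500305, also minus. LOC100232872 is on chromosome 8 from 11886713 to 11887181, LOC100244704 on chromosome 14 from 20165318 to 20165833 and LOC100256803 on chromosome 7 from 19896772 to 19897330, all 3 on the plus strand. The 2 genes of chromosome 14 lie 9333.5 kb from each other. The table assigns LOC100266074, LOC100232872 and LOC100244704 to the Pfam family of protease inhibitors, seed storage proteins and lipid-transfer proteins (PF00234), which also takes in 2S albumins. LOC100243960 and LOC100256803 belong to the family "probable lipid transfer" (PF14368). The transcript lengths behind the values, read back from the steps between low values, were 661 bp for LOC100266074, 857 bp for LOC100243960, 360 bp for LOC100232872, 336 bp for LOC100244704 and 559 bp for LOC100256803. None of the 5 overlaps another gene of the table or of RefSeq.

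Levels are given as FPKM, fragment numbers normalised for transcript length and library size. Differences are on the log2(FPKM + 1) scale with the standard error from limma, and changes of genes at low levels are understated on it. The libraries held 20034000 to 30002000 fragments, estimated from the same steps. A list of 44 seed storage, oil body and LEA genes held 0.0532% to 1.39% of the summed FPKM in ZP libraries and 16.9% to 46.1% in MH libraries. FPKM is a share, and the median gene was 0.58 higher in ZP on average over the days. After median-ratio scaling that median was 0.08. A difference was called at an adjusted p under 0.05 in limma over 12637 genes. The varieties were free of overlap for 90.6% of these genes at day 35, 88.8% at day 45, 85.9% at day 55 and 87.8% at day 61. In MH from day 45 on, replicate 1 exceeded replicate 2 for short transcripts (up to 700 bp; median ratio 1.28 to 1.46) and not for longer ones (0.866 to 0.921). In ZP at day 55 replicate 1 was lower for short transcripts (0.631) and not for longer ones (1.04). In these groups the 5 genes had ratios of 1.06 to 2.42 in MH, and the 3 genes higher in ZP at that day had 0.56 to 0.643 in ZP. LOC100243960 has 857 bp and is thus among the longer transcripts, but its MH ratios were 1.72 to 2.3. The part of this tilt in the results was not tested. Anthocyanidin reductase (ANR), an enzyme of seed coat tannin synthesis, was read in every library, at 306 to 759 FPKM.

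LOC100266074 was the gene of the 5 with the highest level, and it was abundant in MH and rare in ZP. In ZP its libraries held 0.0514 and 11.0 FPKM at day 35, 0.113 and 17.9 FPKM at day 45, 0.855 and 49.97 FPKM at day 55, and 64.5 and 151 FPKM at day 61. In MH they held 1693 and 1119 FPKM at day 35, 33532 and 16709 FPKM at day 45, 42138 and 20708 FPKM at day 55, and 46324 and 24695 FPKM at day 61. Every ZP library was below every MH library, also across days. The MH mean was 254, 2796, 1236 and 329.9 times the ZP mean on the 4 days, and ZP minus MH was -8.60 ± 1.50 at day 35, -12.33 ± 1.50 at day 45, -11.57 ± 1.50 at day 55 and -8.41 ± 1.50 at day 61. Among all genes of a library it ranked 21st and 24th in MH at day 35 and between 3rd and 5th from day 45 on, where it alone made up 3.85% to 8.79% of the summed FPKM. In ZP the first library of days 35, 45 and 55 held 1, 2 and 14 of its fragments, and the second 185, 278 and 991. A single fragment in the ZP library of day 35 has an exact 95% Poisson interval of 0.0013 to 0.286 FPKM, which covers counting error only.

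The level of LOC100266074 rose over the days in both varieties. These comparisons within a variety, here and for the other picked genes, share their libraries with the variety difference by which the genes were picked. Their p-values are not independent of that choice. In ZP LOC100266074 was 4.81 ± 1.50 higher at day 61 than at day 35 (adjusted p = 0.0119). In that comparison 31.9% of all genes were called higher. In MH it was 4.10 ± 1.50 higher at day 45 than at day 35 (adjusted p = 0.0343, against 10.2% of all genes called higher) and 4.62 ± 1.50 higher at day 61 than at day 35 (adjusted p = 0.0145, against 15.8%). The later MH steps were 0.32 ± 1.50 up to day 55 and 0.20 ± 1.50 up to day 61 (adjusted p = 0.959 and 0.974). The standard error is pooled over the 8 groups and holds the wide gap between the ZP libraries: with the 2 MH groups alone, the change from day 35 to 45 had an adjusted p of 3.92e-09 and that from day 35 to 61 one of 2.35e-06. The calls were lost under other settings: with a pseudocount of 0.1 the MH p-values were 0.13 and 0.073, without any 1 of the 4 libraries of MH at days 35 and 45 the first lay between 0.0599 and 0.144, and the ZP call was lost without ZP day 35 replicate 1 (3.05, adjusted p = 0.143) or ZP day 61 replicate 2 (4.20, adjusted p = 0.0751). The ZP step from day 55 to 61 was 3.36 ± 1.50 (adjusted p = 0.111), and without ZP day 55 replicate 2 it was called at 5.75 (adjusted p = 0.0137, against 9.19% of all genes called higher with all libraries).

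LOC100243960 was nearly silent in ZP and climbed steeply in MH. In ZP it held 0 and 0.0918 FPKM at day 35, 0.131 and 2.08 FPKM at day 45, 0.424 and 4.04 FPKM at day 55, and 2.72 and 0.329 FPKM at day 61. In MH it held 6.35 and 4.40 FPKM at day 35, 46.5 and 27.0 FPKM at day 45, 380.2 and 166 FPKM at day 55, and 5287 and 2695 FPKM at day 61. The varieties did not overlap within any day or across days. At day 35 the ZP libraries held 0 and 2 of its fragments and the MH libraries 110 and 83, so the ZP group was under the floor of 3 fragments and no ratio is given. Its log2 difference at that day depends on the pseudocount for the same reason (-5.28 with 0.1). The MH mean was 33.2, 122 and 2618 times the ZP mean at days 45, 55 and 61. ZP minus MH was -2.59 ± 0.66, -4.29 ± 0.66, -6.55 ± 0.66 and -10.73 ± 0.66 on the 4 days. At day 61 LOC100243960 ranked 9th and 12th among all genes in the MH libraries, against 7895th and 11703rd in the ZP libraries.

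The climb of LOC100243960 in MH was 2.53 ± 0.66 from day 35 to 45, 2.79 ± 0.66 from day 45 to 55 and 3.91 ± 0.66 from day 55 to 61. These steps are given without a test, because its change from day 35 to 61 (9.23 ± 0.66) is among the 5 largest rises of that variety, by which genes were named earlier. In ZP its change from day 35 to 61 was 1.09 ± 0.66 (adjusted p = 0.162). With a pseudocount of 0.1 the ZP change was 2.99 (adjusted p = 0.0319), on the basis of 0 and 2 fragments at day 35 and 49 and 6 at day 61.

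LOC100232872 went the other way: it was abundant in ZP on all days and declined in MH. In ZP it held 1034 and 1050.3 FPKM at day 35, 1948 and 1851 FPKM at day 45, 1183 and 1840.4 FPKM at day 55, and 2329 and 2676 FPKM at day 61. In MH it held 136 and 89.5 FPKM at day 35, 38.9 and 23.3 FPKM at day 45, 13.6 and 7.76 FPKM at day 55, and 8.83 and 8.32 FPKM at day 61. The lowest ZP library was above the highest MH library. ZP means were 9.24, 61.1, 142 and 292 times MH means on the 4 days, and ZP minus MH was 3.23 ± 0.29, 5.93 ± 0.29, 7.03 ± 0.29 and 8.03 ± 0.29. In ZP the gene ranked between 11th and 25th in its library, in MH between 364th and 4156th.

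The change of LOC100232872 over the days was a rise in ZP and a fall in MH. In ZP it was 0.86 ± 0.29 higher at day 45 than at day 35 (adjusted p = 0.0209, against 31.4% of all genes called higher) and 1.26 ± 0.29 higher at day 61 than at day 35 (adjusted p = 0.00161). In MH it changed by -1.84 ± 0.29 from day 35 to 45 (adjusted p = 0.000125, against 42.2% of all genes called lower) and changed by -1.46 ± 0.29 from day 45 to 55 (adjusted p = 0.00368, against 8.31%). The MH step from day 55 to 61 was -0.24 ± 0.29 (adjusted p = 0.641). Over the whole span the MH change was -3.54 ± 0.29 (adjusted p = 1.53e-07, against 52.1% called lower). These libraries also made the variety difference by which the gene was picked, so the p-values are not independent of that choice. The ZP step from day 35 to 45 lost its call after median-ratio scaling (0.73, adjusted p = 0.0956), after quantile normalization (0.69, adjusted p = 0.0512) and without any 1 of its 4 libraries (adjusted p = 0.0659 to 0.0889).

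LOC100244704 followed a like course, but the varieties stood closer at the first days. In ZP it held 326 and 343 FPKM at day 35, 711 and 659 FPKM at day 45, 369 and 633 FPKM at day 55, and 504 and 560.2 FPKM at day 61. In MH it held 138 and 132 FPKM at day 35, 219 and 114 FPKM at day 45, 9.71 and 6.39 FPKM at day 55, and 2.52 and 2.03 FPKM at day 61. The ZP libraries were above those of MH on every day. ZP means were 2.48 and 4.12 times MH means at days 35 and 45, then 62.3 and 234 times at days 55 and 61. ZP minus MH was 1.30 ± 0.29, 2.11 ± 0.29, 5.77 ± 0.29 and 7.35 ± 0.29 on the 4 days. At day 45 it was 1.18 after median-ratio scaling and 1.29 with totals taken without storage genes.

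The widening came with a drop of LOC100244704 in MH after day 45. In MH it changed by 0.23 ± 0.29 from day 35 to 45 (adjusted p = 0.553), by -4.16 ± 0.29 from day 45 to 55 and by -1.45 ± 0.29 from day 55 to 61 (adjusted p = 0.00264, against 14.4% of all genes called lower). The step from day 45 to 55 is given without a test, as it ranks first among the falls of described genes in that comparison. Over the whole span the MH change was -5.38 ± 0.29, which takes in that step and is likewise given without a test. In ZP it was 1.03 ± 0.29 higher at day 45 than at day 35 (adjusted p = 0.00784), and the change from day 35 to 61 was 0.67 ± 0.29 (adjusted p = 0.055). That last p was 0.000183 in a fit of only the 2 groups, and the MH step from day 55 to 61, on 25 and 15 fragments at day 61 against 90 and 43 at day 55, had an adjusted p of 0.0896 in voom on recovered fragments (-1.80).

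LOC100256803, described as putative DIR1, was the only one of the 5 whose direction between the varieties turned over the days. In ZP it held 439 and 434 FPKM at day 35, 34.8 and 38.7 FPKM at day 45, 5.78 and 10.3 FPKM at day 55, and 1.36 and 1.76 FPKM at day 61. In MH it held 30.4 and 24.5 FPKM at day 35, 0.424 and 0.236 FPKM at day 45, 4.54 and 1.88 FPKM at day 55, and 6.48 and 5.36 FPKM at day 61. Both ZP libraries were higher at days 35, 45 and 55, and both MH libraries were higher at day 61. ZP minus MH was 3.95 ± 0.28, 4.83 ± 0.28, 1.13 ± 0.28 and -1.43 ± 0.28 on the 4 days. The value at day 55 depended on the scaling: it was 0.44 after median-ratio scaling, 0.24 after quantile normalization, 0.54 with totals taken without storage genes, and 0.66 without MH day 55 replicate 2. The ZP mean was 15.9, 112 and 2.51 times the MH mean at days 35, 45 and 55, and the MH mean was 3.78 times the ZP mean at day 61.

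In ZP the level of LOC100256803 was lower at each later day, changing by -3.54 ± 0.28, -2.11 ± 0.28 and -1.78 ± 0.28, or -7.42 ± 0.28 from day 35 to 61. These ZP steps are given without a test, since that span is among the 5 largest falls of that variety. In MH it fell and came back: it changed by -4.42 ± 0.28 from day 35 to 45 (adjusted p = 2.48e-08) and by 1.59 ± 0.28 from day 45 to 55 (adjusted p = 0.00156, against 5.78% of all genes called higher). The MH step from day 55 to 61 was 0.79 ± 0.28 (adjusted p = 0.0549), and the MH level at day 61 was below that of day 35 (-2.04 ± 0.28, adjusted p = 2.02e-05). The low point in MH at day 45 rests on 7 and 3 fragments. Without MH day 55 replicate 1, which held 70 fragments against 21 in replicate 2, the step from day 55 to 61 was 1.26 (adjusted p = 0.00372), and after median-ratio scaling it was 0.96 (adjusted p = 0.0412). With the replicate block within each variety it was 0.79 (adjusted p = 0.00622), and the fit without block or scaling called 9.22% of all genes higher.

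**Figure D1:**
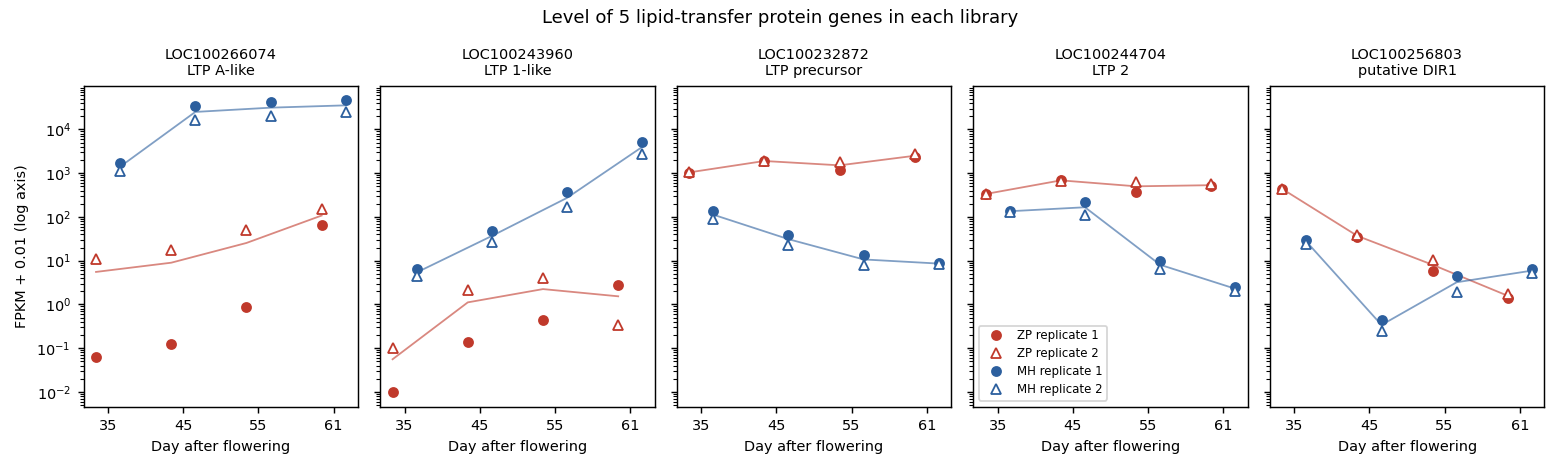
Level of each of the 5 genes by day after flowering, on a log axis of FPKM + 0.01, with ZP in red left of MH in blue; filled circles are replicate 1, open triangles replicate 2 and lines join group means of 2 libraries. LOC100266074 and LOC100243960 are higher in MH and LOC100232872 and LOC100244704 higher in ZP on all days, while LOC100256803 is higher in ZP until day 55 and in MH at day 61.

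In FPKM as deposited, on the log2(FPKM + 1) scale, the gap between the varieties was wider on each later day for LOC100232872 and LOC100244704. For LOC100243960 it was wider on each later day from day 45 on. Its day 35 value rests on 0 and 2 ZP fragments and was -5.28 with a pseudocount of 0.1, so its step to day 45 is left out. For LOC100256803 the gap narrowed after day 45 and crossed zero. Setting the change from day 35 to 61 in ZP against that in MH, the difference was 4.80 ± 0.41 for LOC100232872 and 6.05 ± 0.40 for LOC100244704. It was -8.14 ± 0.93 for LOC100243960 and -5.38 ± 0.39 for LOC100256803. For LOC100266074 it was 0.19 ± 2.12, and -1.56 to 2.26 under other settings. That spread is too wide to say whether its changes were alike in the varieties. The median over all genes was 0.49 for this difference, and 69.1% of them were called. These values follow from the variety differences used to pick the genes and are given without a test.

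**Figure D2:**
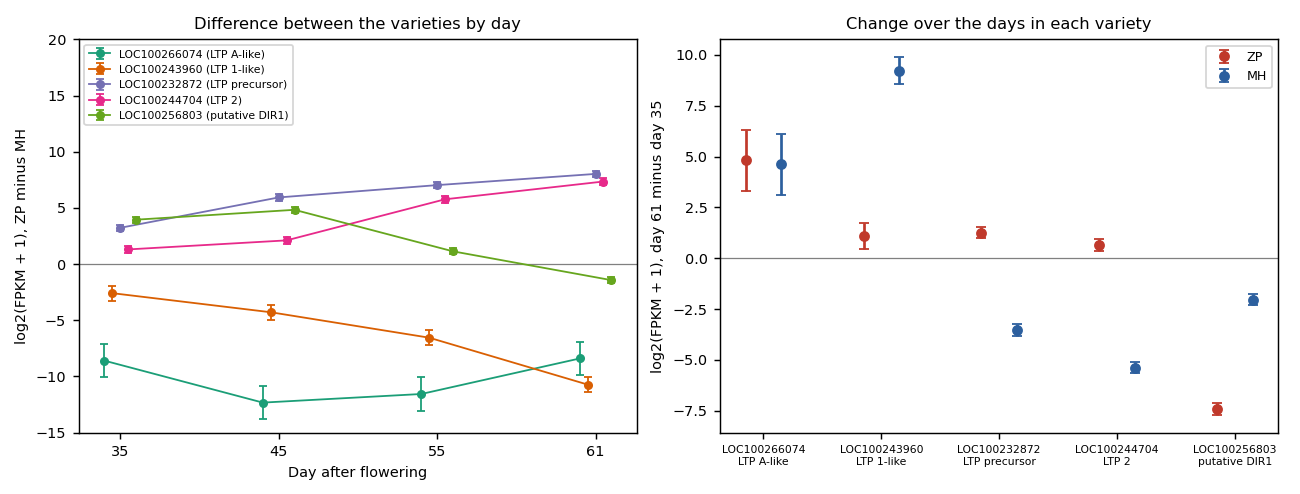
Left, ZP minus MH in log2(FPKM + 1) by day for each of the 5 genes; right, day 61 minus day 35 on the same scale in ZP (red, left) and MH (blue, right); bars are standard errors from limma over 16 libraries. The lines of LOC100232872 and LOC100244704 climb to 8.03 and 7.35 at day 61, that of LOC100243960 goes down to -10.73, and that of LOC100256803 crosses zero between days 55 and 61.

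The table holds 22 genes described as lipid-transfer proteins, the 5 included, and the makeup of this family differed between the varieties. LOC100266074 held 0.000671% to 2.67% of the summed FPKM of the 22 genes in ZP libraries. In MH libraries it held 43.6% and 35.1% on the first day, 88.3% and 88.2% on the last, and 95.3% to 97.5% in between. LOC100243960 added 9.62% and 10.1% in MH at day 61. LOC100232872 held 13.5% to 47.7% of the family in ZP, its share being higher on each later day, and 0.0168% to 3.51% in MH. The whole family summed to 3577 to 8180 FPKM in ZP libraries and 3192 to 52449 FPKM in MH libraries. Without the 5 genes the sums were 1985 to 5866 FPKM in ZP and 459 to 1878 FPKM in MH.

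The 17 other lipid-transfer genes were split between the varieties. Averaged over the days 9 were called higher and 8 lower in ZP, where 61.6% and 27.0% of all tested genes were called in these directions, and their median difference was 0.71 against 0.58 over all genes. Under each of 3 other scalings (median-ratio, quantile, and totals taken without storage genes) 8 were higher and 8 lower. Of all genes, 46.7% to 48.9% were called higher and 41.3% to 43.4% lower under these scalings. Between the first and the last day 4 rose and 7 fell in ZP, where 31.9% and 35.0% of all genes did, with a median of 0 against -0.01 over all genes. In MH 7 rose and 5 fell, where 15.8% and 52.1% of all genes did, with a median of 0.03 against -0.42. Of these 7, LOC100242246, LOC100256638, LOC100257872, LOC100852418 and LOC100852506 had MH means of only 0.38 to 8.96 FPKM at day 61. LOC100259092 and LOC104878114 had 175 and 86.9 FPKM. Of the 8 called lower in ZP without rescaling, LOC100242246, LOC100257872, LOC100260175 and LOC100852506 had a highest group mean of 1.83 to 8.96 FPKM. Of the 9 called higher, LOC100852418 and LOC100852902 had one of 4.93 and 3.69 FPKM. The number that rose in ZP was 2 without ZP day 35 replicate 2, and also 2 without ZP day 61 replicate 2.

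The most abundant of them was LOC100854121, on chromosome 10 from 1925600 to 1926392. It held 4296 and 4259 FPKM in ZP against 1400.2 and 1429 FPKM in MH at day 35, and 1339 and 1485 FPKM in ZP against 245 and 182 FPKM in MH at day 61. It was higher in ZP by 2.83 ± 0.09 on average (adjusted p = 3.12e-12) and fell from day 35 to 61 in both varieties (-1.60 in ZP and -2.74 in MH, adjusted p = 5.84e-06 and 3.18e-08). At days 35, 45 and 55 it stood above LOC100232872 in every ZP library, and at day 61 below it. LOC104878333, described as AKCS9, was higher in ZP by 1.20 ± 0.15 on average (adjusted p = 3.45e-06), but at day 45 its difference of 0.84 (adjusted p = 0.019, against 59.8% of all genes called higher) became -0.09 after median-ratio scaling.

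A gene model of the authors' own, without a RefSeq name, follows LOC100244704 on chromosome 14, from 20197789 to 20248384, and is also described as AKCS9. It held 149 and 159 FPKM in ZP against 47.2 and 35.6 FPKM in MH at day 35, and 226 and 291 FPKM in ZP against 0.579 and 0.622 FPKM in MH at day 61. Its variety difference was 5.27 ± 0.15 on average (adjusted p = 6.86e-13) and 7.33 ± 0.30 at day 61 (adjusted p = 1.34e-10, against 55.5% called higher). Over the 16 libraries it correlated with LOC100244704 at a Pearson r of 0.937 on log2(FPKM + 1), a description of points that share variety and day. The gene with the PF00234 domain nearest to LOC100232872 is LOC100261985, 10.3 kb away and described only as an unnamed product. It was chosen after its values were seen. It held 719 and 759 FPKM in ZP against 738 and 454 FPKM in MH at day 61 (0.35 ± 0.28, adjusted p = 0.272), and its r with LOC100232872 was 0.611.

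Of the other family genes that reached a group mean of 10 FPKM, 3 had the largest differences towards MH. LOC104878114, on chromosome 10 and described as DIR1 like LOC100256803, held 0.344 and 0.142 FPKM in ZP against 111 and 62.8 FPKM in MH at day 61 (-6.09 ± 0.41, adjusted p = 1.35e-08, against 19.2% of all genes called lower). It rose in MH by 5.56 ± 0.41 from day 35 to 61 (adjusted p = 5.67e-08) and was -3.23 ± 0.20 on average over the days (adjusted p = 2.60e-09). LOC100259092, described as GPI-anchored 1, fell in ZP and rose in MH over the same span (-1.54 ± 0.27 and 1.04 ± 0.27, adjusted p = 0.000191 and 0.00359). LOC100245930, non-specific lipid-transfer protein 8, had its peak in MH at day 45, with 19.5 and 21.9 FPKM in ZP against 290 and 153 FPKM in MH (-3.29 ± 0.32, adjusted p = 4.86e-07, against 19.1% called lower). At day 61 its libraries held 56.1 and 67.4 FPKM in ZP and 40.6 and 34.9 FPKM in MH (0.69 ± 0.32, adjusted p = 0.0627).

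**Figure D3:**
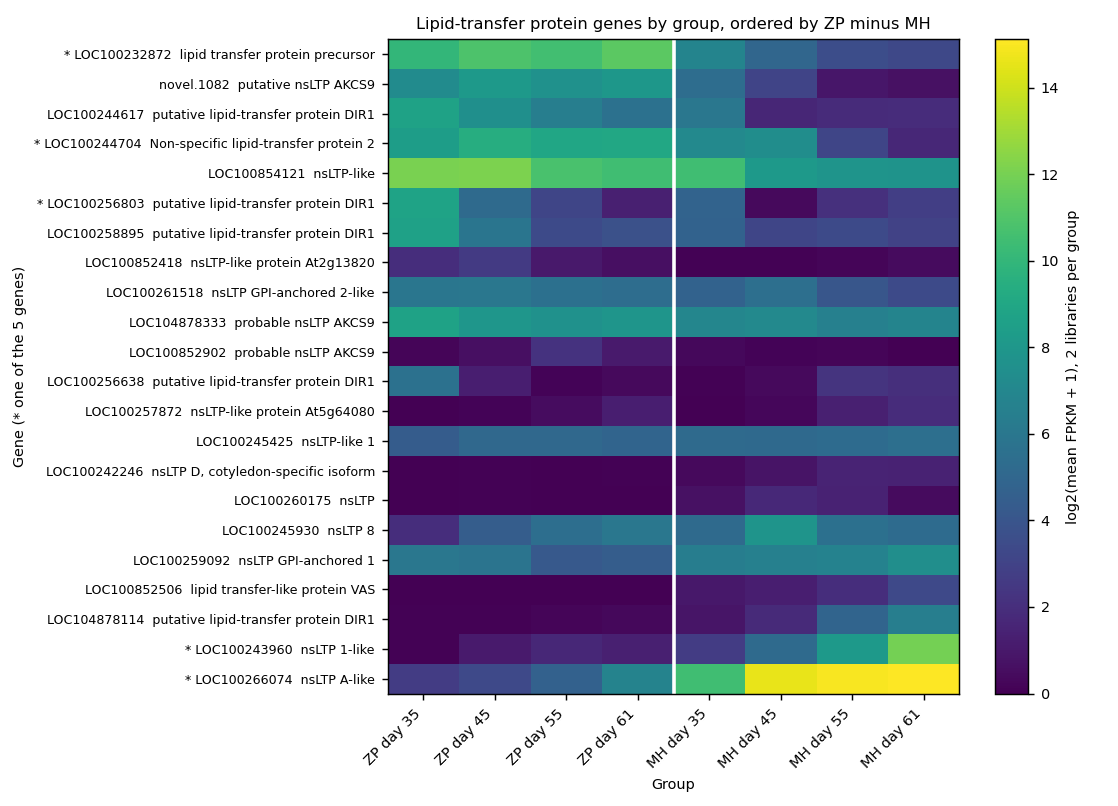
Mean level of the 22 lipid-transfer genes in the 8 groups, as log2(mean FPKM + 1) of 2 libraries, with the ZP days left of the MH days, ordered by the difference ZP minus MH; stars mark the 5 genes. LOC100232872 is at the top and LOC100266074 and LOC100243960 are at the bottom, while the other genes lie between them with both directions present.

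DIR1 is the description of 5 genes of the table, and they did not share 1 course. LOC100244617 held 424 and 422 FPKM in ZP against 73.3 and 52.9 FPKM in MH at day 35, and 45.7 and 51.5 FPKM in ZP against 4.79 and 0.658 FPKM in MH at day 61. It was higher in ZP on each day, by 4.36 ± 0.26 on average (adjusted p = 1.52e-09). LOC100258895 and LOC100256638 were described as DIR1 too and were chosen here after their values were seen. LOC100258895 had 389 and 403 FPKM in ZP against 28.6 and 22.3 FPKM in MH at day 35 (3.92 ± 0.35, adjusted p = 2.46e-07, against 45.8% of all genes called higher), and 8.65 and 15.8 FPKM in ZP against 7.95 and 5.80 FPKM in MH at day 61 (0.71 ± 0.35, adjusted p = 0.0794). LOC100256638 turned its direction too, already at day 55 (-1.97 ± 0.31, adjusted p = 4.69e-05). It had 47.8 and 49.4 FPKM in ZP against 0.0874 and 0 FPKM in MH at day 35 (5.57 ± 0.31, adjusted p = 2.34e-09), and 0.420 and 0.166 FPKM in ZP against 2.75 and 3.61 FPKM in MH at day 61 (-1.69 ± 0.31, adjusted p = 2e-04). Over the 16 libraries the Pearson r with LOC100256803 was 0.927 for LOC100258895, 0.773 for LOC100244617, 0.707 for LOC100256638 and -0.361 for LOC104878114.

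Other genes known from systemic acquired resistance, the process in which DIR1 acts in Arabidopsis, changed in both directions. Of 23 such genes 12 (52.2%) were higher and 10 (43.5%) lower in ZP on average, against 61.6% and 27.0% of all genes, with a median of 0.17 against 0.58. After median-ratio scaling 6 were higher and 13 lower, against 47.1% and 43.1% of all genes, with a median of -0.44 against 0.08. LOC100248597, a probable flavin-containing monooxygenase 1, of the family that in Arabidopsis makes the mobile signal N-hydroxypipecolic acid, differed by 0.17 ± 0.07 (adjusted p = 0.0306), which turned to -0.56 after that scaling. LOC100261224, a glycerol-3-phosphate dehydrogenase, held 14.3 and 21.3 FPKM in ZP against 181 and 204 FPKM in MH at day 61, and was -2.62 ± 0.08 on average (adjusted p = 1.20e-12). The 23 genes summed to 315 to 405 FPKM in ZP libraries and 348 to 577 FPKM in MH libraries.

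Genes of cuticle synthesis and export, the process in which epidermal lipid-transfer proteins are known, were called on average over the days in shares near those of all genes. Of 44 such genes 40 were tested. Of these 27 (67.5%) were higher and 12 (30%) lower in ZP on average, against 61.6% and 27.0% of all genes, with a median of 1.14 against 0.58. At day 35 the share was larger: 30 (75%) were higher, against 45.8% of all genes, and 6 (15%) lower, with a median of 1.29 against 0.24. After median-ratio scaling 23 were higher and 13 lower on average, against 47.1% and 43.1% of all genes (median 0.61 against 0.08). With that scaling 15 were higher and 15 lower at day 61, against 40.9% and 37.6% of all genes (median 0.09 against 0.05). They summed to 674 to 1346 FPKM in ZP libraries and 239 to 481 FPKM in MH libraries. LOC100252499, a 3-ketoacyl-CoA synthase 10, of the enzymes that lengthen fatty acids for waxes, held 173 and 148 FPKM in ZP against 29.6 and 25.2 FPKM in MH at day 61, and was 2.35 ± 0.09 higher on average (adjusted p = 8.39e-12). LOC100257137, long chain acyl-CoA synthetase 2, which activates fatty acids for cutin, was 1.32 ± 0.09 higher on average (adjusted p = 5.48e-09).

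The summed seed storage transcripts, like LOC100266074, were higher in every MH library than in any ZP library. From day 45 on their courses in MH differed. In ZP the storage list summed to 188 and 278 FPKM at day 35, 671 and 749.7 FPKM at day 45, 636 and 1171 FPKM at day 55, and 2773 and 4971 FPKM at day 61, with replicate 2 above replicate 1 each time. Cruciferin CRU1 (LOC100246409), a storage globulin, stood in ZP at 0.0589 and 32.02 FPKM at day 35, 0.173 and 44.4 FPKM at day 45, 0.163 and 75.0 FPKM at day 55, and 50.8 and 223 FPKM at day 61. CRU1 was lower in replicate 1 on the same days as LOC100266074. In MH at days 45, 55 and 61 its ratio of replicate 1 to replicate 2 was 1.01, 1.07 and 0.952. For LOC100266074 these ratios were 2.01, 2.03 and 1.88. The 2S albumin LOC100252101 had MH ratios of 2.41, 2.34 and 2.19 on these days. In ZP it held 0 and 19.0 FPKM at day 35, and 322 and 1020 FPKM at day 61. In MH the list summed to 62454 to 243275 FPKM. From day 45 to 61 the MH sum went from 243275 to 209126 FPKM in replicate 1 and from 178097 to 179413 FPKM in replicate 2. LOC100266074 was higher at day 61 than at day 45 in both. LOC100266074 came to 2.33% to 4.27% of the list's sum in the ZP libraries other than replicate 1 of days 35, 45 and 55, where it came to 0.0169% to 0.134%. It came to 1.79% and 2.09% in MH at day 35 and to 9.38% to 22.2% in MH later. The part of storage tissue in its differences was not tested.

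**Figure D4:**
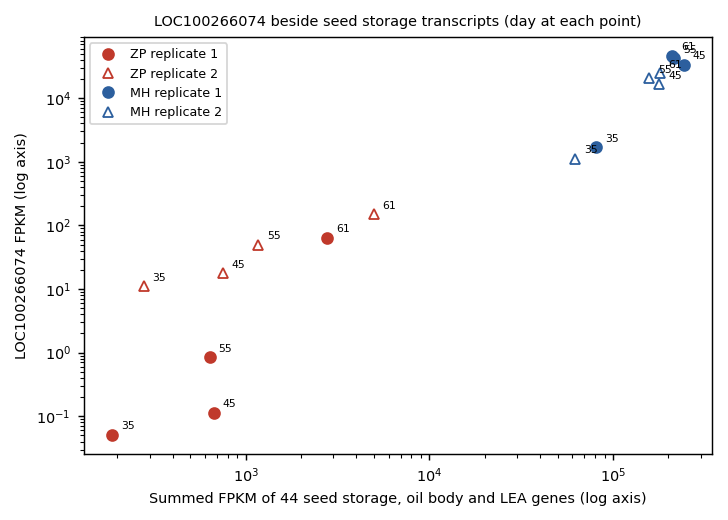
LOC100266074 in FPKM against the summed FPKM of 44 seed storage, oil body and LEA genes in each of the 16 libraries, both on log axes, with the day beside each point; ZP is red and MH blue, circles are replicate 1 and triangles replicate 2. The ZP libraries lie at up to 4971 summed FPKM and the MH libraries at 62454 or more, and 3 ZP libraries of replicate 1 lie below the others.

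Markers of the fruit wall, a tissue that could be sampled with an ovule, and of the seed coat were measured beside them. Of 92 tested genes of the ripening fruit wall 76 (82.6%) were higher and 10 (10.9%) lower in ZP, against 61.6% and 27.0% of all genes (median 0.81 against 0.58), with sums of 2570 to 7597 FPKM in ZP and 3250.4 to 5435 FPKM in MH. After median-ratio scaling the counts were 61 and 20, against 47.1% and 43.1% of all genes. The 2 most abundant went opposite ways, GRIP31 by -2.35 ± 0.07 and GRIP68 by 1.26 ± 0.09 on average (adjusted p = 6.62e-13 and 1.44e-08). Of 13 seed coat genes 12 (92.3%) were higher and 1 (7.7%) lower in ZP (median 1.55), and after median-ratio scaling 9 and 1, with sums of 784 to 1135 FPKM in ZP and 532 to 941 FPKM in MH. The 1 lower gene was ANR (-0.20 ± 0.06, adjusted p = 0.0056), and a BEL1-like homeodomain gene (LOC100255734) was higher by 1.53 ± 0.07 (adjusted p = 8.31e-11). The part of these tissues in the results was not tested.

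The genes whose pattern was most like that of each of the 5 were taken by the highest Pearson r over the 16 libraries on log2(FPKM + 1) among 5157 described genes. These values are descriptions of points that share variety and day. For LOC100266074 they were a basic 7S globulin (LOC100240860, 0.990), vicilin-like antimicrobial peptides 2-3 (LOC100852645, 0.990) and an endochitinase (LOC100255900, 0.983). For LOC100243960 they were a heavy metal-associated isoprenylated protein (LOC100261510, 0.984), a class I small heat shock protein (LOC100256188, 0.982) and late embryogenesis abundant protein D-34 (LOC100266502, 0.981). LOC100232872 was nearest to urease accessory protein G (LOC100243473, 0.991), a quinone oxidoreductase homolog (LOC100248513, 0.990) and LIGHT-DEPENDENT SHORT HYPOCOTYLS 4 (LOC100249172, 0.990). LOC100244704 was nearest to a Rubisco small chain (LOC100267942, 0.975), DMP6 (LOC100262407, 0.966) and TRANSPARENT TESTA 16 (LOC100244209, 0.964), a MADS-box regulator of the seed coat in Arabidopsis. LOC100256803 was nearest to an inhibitor of fructosidase (LOC100255574, 0.961), the GTP-binding protein ARAC7 (LOC100266265, 0.954) and ACR6 (LOC100256112, 0.954). Among the 5 themselves r was 0.850 between LOC100266074 and LOC100243960 and 0.901 between LOC100232872 and LOC100244704. It was -0.615 to 0.408 between LOC100256803 and the other 4.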

How the data were processed

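One deposited table holds FPKM of each gene in 16 libraries, per the file headers, beside positions and descriptions. Per the labels' protocols, total RNA was read on a NovaSeq X Plus. For the aligner, counter, strand setting and treatment of reads shared by near-identical genes, as for the build, the entry is: not given in the sources used here.

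The 5 genes and all lists were chosen with earlier results of these data known. List patterns were corrected after the descriptions were seen, because they matched parts of other words. Limma 3.58.1 in R 4.3.3, with its trend option, took log2(FPKM + 1) of the 12637 genes that reached 1 FPKM in 2 or more libraries, with a mean for each of 8 groups and 8 residual degrees of freedom. Contrasts were ZP minus MH, later minus earlier days within a variety, and the difference of the changes from day 35 to 61. Benjamini-Hochberg adjustment of the two-sided p-values ran over all genes. The fit was checked on simulated data.

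The other lipid-transfer genes named are the 4 most abundant and the 3 largest rises and falls with a group mean of at least 10 FPKM. The 2 most abundant genes of each other list were named. Other names are marked as chosen after seeing values.

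Where fragments were counted whole, FPKM values move in steps. These gave library depths, and for 13197 of 13411 genes (98.4%, within 0.05 of a fragment) transcript lengths and fragment numbers. Alternatives covered the pseudocount, filter, scaling, prior variance, replicate block, groups in the fit and single libraries. Voom on the recovered fragments, a replicate block within each variety and leaving out replicate 2 of all ZP groups were added after seeing the data. All per-sample columns were used.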

Additional observations from a re-analysis of the deposited data

Results flagged for a closer look

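The change from day 35 to 61 in ZP was set against that in MH, on the log2(FPKM + 1) scale. The 4 of the 5 genes listed here were flagged by a call in the fit over all genes, which is no test of them. The change in ZP minus the change in MH was -8.14 for LOC100243960, where ZP moved by 1.09 and MH by 9.23. It was 4.80 for LOC100232872, where ZP moved by 1.26 and MH by -3.54. It was 6.05 for LOC100244704, where ZP moved by 0.67 and MH by -5.38. It was -5.38 for LOC100256803, where ZP moved by -7.42 and MH by -2.04. The genes were picked for differences between the varieties, so these values carry no independent test. Of all 12637 genes, 69.1% were called for this difference.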

How the results depend on the processing

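Of the variety differences of the 5 genes on each day and on average, 435 values were computed under alternatives. Of these 0 had another sign. For each of the 5 genes, on each day, every library of the higher variety exceeded every library of the other. Leaving out libraries or changing the pseudocount, filter or prior variance could therefore not turn a sign on a day. Under those settings the 0 says nothing about stability, whereas rescaling could have turned a sign. Of the 435 values, 100 moved by more than 1 residual SD, and 8 moved by over 1.5 times. These 8 were those of LOC100244704 at day 45 and LOC100256803 at day 55 given above, and LOC100243960 at day 35 with a pseudocount of 0.1 and in voom (-6.79). Calls over the days that were lost or gained are given with each gene above. Beyond those, without replicate 2 of all 4 ZP groups LOC100232872 lost its call in MH from day 45 to 55 (adjusted p = 0.0583), and in ZP from day 35 to 45 and to 61 (0.212 and 0.0947). LOC100244704 then lost its ZP call from day 35 to 45 (0.112). LOC100232872 was called in ZP from day 55 to 61 without ZP day 55 replicate 2 (1.08, adjusted p = 0.0304) and in voom (0.75, adjusted p = 0.0107). LOC100266074 was not called in MH from day 35 to 45 or to 61 after quantile normalization (adjusted p = 0.117 and 0.0839), nor for the first with a robust prior without trend (0.0756). From day 35 to 61 it was not called without MH day 35 replicate 2 (0.0702) or MH day 61 replicate 1 (0.0758). LOC100244704 was called in ZP from day 35 to 61 after quantile normalization and in voom (adjusted p = 0.0315 and 0.0288).

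Leaving out replicate 2 of all ZP groups gave 924 called genes in MH from day 45 to 55 (1780 otherwise), 1620 in MH from day 55 to 61 (2988), and in ZP 3925 from day 35 to 45 (6974), 1740 from day 45 to 55 (4050) and 1694 from day 55 to 61 (3963). It left 2 other lipid-transfer genes that rose in ZP from day 35 to 61 (4 otherwise). Fitting only the groups compared gave 493 and 1411 genes for the MH steps to day 55 and to day 61. Both use fewer samples. Leaving out single libraries gave 1969 to 3115 genes for MH from day 55 to 61, and 2 to 4 lipid-transfer genes that rose in ZP.

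Scaling changed the split of calls over all genes. ZP minus MH on average had 7786 higher and 3418 lower genes, against 5860 and 5370 after median-ratio scaling and 5898 and 5490 after quantile normalization. MH from day 35 to 61 had 1999 higher and 6588 lower, against 3897 and 4399 or 4170 and 3943.

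Replicate numbers were compared by the correlation of deviations from the group mean. It was 0.41 to 0.73 in all 6 pairs of MH groups, 0.08 to 0.27 in the 6 pairs of ZP groups (5 over 0.1), and -0.60 to 0.08 between varieties (0 of 16 over 0.1), so the numbers pair MH libraries as a hint from the data and do not pair across varieties. With 1 replicate block over both varieties, 1909 genes were called in MH from day 45 to 55 and 3217 from day 55 to 61, and no call on the 5 genes changed. With a replicate block within each variety, added after seeing the data, the counts were 2929 and 4472. No call on the 5 genes was lost with it, and 4 were gained: LOC100256803 in MH (above), LOC100266074 and LOC100232872 in ZP from day 55 to 61 (adjusted p = 0.000448 and 0.00392), and LOC100244704 in ZP from day 35 to 61 (0.0115). With 2 libraries per group, values under 3 fragments are not told apart from 0.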

Other observations

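Another 21 genes carry a lipid-transfer type Pfam domain under other descriptions, a list drawn up after values were seen. They summed to 3022 to 12556 FPKM in ZP libraries and 1369 to 2974 FPKM in MH libraries. The most abundant was LOC100249909, an uncharacterized gene on chromosome 13 from 26086796 to 26087666. It held 6057 and 6181 FPKM in ZP against 513 and 507 FPKM in MH at day 35, and 1389 and 1596 FPKM in ZP against 0.993 and 1.50 FPKM in MH at day 61. Its difference was 7.24 ± 0.09 on average over the days (limma, adjusted p = 8.96e-16), and it changed from day 35 to 61 by -2.04 in ZP and -7.84 in MH. It stood above all 22 genes described as lipid-transfer proteins in ZP at day 35. The next was LOC100262648, a 36.4 kDa proline-rich protein, which held 2522 and 2598 FPKM in ZP against 644 and 472 FPKM in MH at day 35 (2.21 ± 0.34, adjusted p = 4.83e-05).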
